A study of Mus musculus with 2 samples.

Results

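Hox genes encode homeodomain transcription factors that give cells along the head-to-tail axis their position. The mouse has 39 of them, in 4 clusters named HoxA to HoxD, and members that share a number, called paralogs, descend from the same ancestral gene. Within a cluster the genes point the same way, the low-numbered members at the 3′ end act in more anterior regions, and the high-numbered members at the 5′ end act in more posterior ones. In the gut they are best known from the mesenchyme, the layer that forms smooth muscle and connective tissue, where Hoxa5 is required for normal stomach development and the highest-numbered members pattern the hindgut. The members described here are all protein-coding genes in both gene tables with a symbol of the form Hoxa, Hoxb, Hoxc or Hoxd and a number. The rule found 39 genes among 43346 mouse genes, of which 21474 are protein-coding. HoxA (chromosome 6) held 11 members, HoxB (chromosome 11, 96194316 to 96368256 on mm10) 10, HoxC (chromosome 15, 102921103 to 103036852) 9 and HoxD (chromosome 2, 74668310 to 74765142) 9.

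The RNA came from the whole stomach of 8-week-old C57BL/6J mice, a common inbred strain, with no treatment or genetic change named in the labels. Long polyadenylated RNA (over 200 nucleotides) was freed of ribosomal RNA and read as strand-specific pairs of 76 nucleotides. The 2 libraries, replicates 1 and 2, form 1 group. Each is a pool of male and female littermates with its own tissue record and a shared donor record, so that differences between them measure only the spread between these libraries, which may be technical. With 1 group there is no contrast, and the data show which members the stomach held, at what level, and how far the libraries parted.

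The deposited expected counts came to 52363597 read pairs in replicate 1 and 62452468 in replicate 2, of which 51633658 and 61635975 fell on mouse genes. All 39 Hox genes together took 8278.47 and 7999.98 of these pairs, or 0.0160% and 0.0130%. Levels are given as TPM, a share of all transcripts that is per length and can be compared between genes, and a gene counted as detected when its TPM was at least 1 in both libraries. All 8 markers of the gastric gland, all 8 of smooth muscle and all 6 of the squamous lining of the forestomach were detected. The share of all protein-coding genes detected was 48.9%. Markers of both regions of a mouse stomach were thus present. In such bulk tissue, fewer cells of a type and less RNA per cell cannot be told apart.

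The stomach held members of the lower-numbered part of each Hox cluster and almost no transcript of its high-numbered end. Of the 39 members 17 were detected (43.6%), against 48.9% of all protein-coding genes. Members of paralog groups 2 to 8 made up all 17, out of 20 genes with those numbers, and they held 99.1% of the summed Hox TPM in replicate 1 and 98.9% in replicate 2. Of the 4 members of group 9 and of the 12 of groups 10 to 13 none was detected. In all, 14 of the 39 members had no count in either library, and the share of all protein-coding genes with no count was 22.5%. At these depths a count of 0 allows up to 3 read pairs, which for these 14 genes stood for a TPM between 0.0223 and 0.0629 in replicate 1 and between 0.0187 and 0.0521 in replicate 2. These limits cover counting error alone, because the reads carry no molecular identifiers and copies of 1 molecule cannot be recognised. The deposited upper bounds on TPM reached higher, up to 0.269 in replicate 1 and 0.222 in replicate 2, both for Hoxa13.

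**Figure D1:**
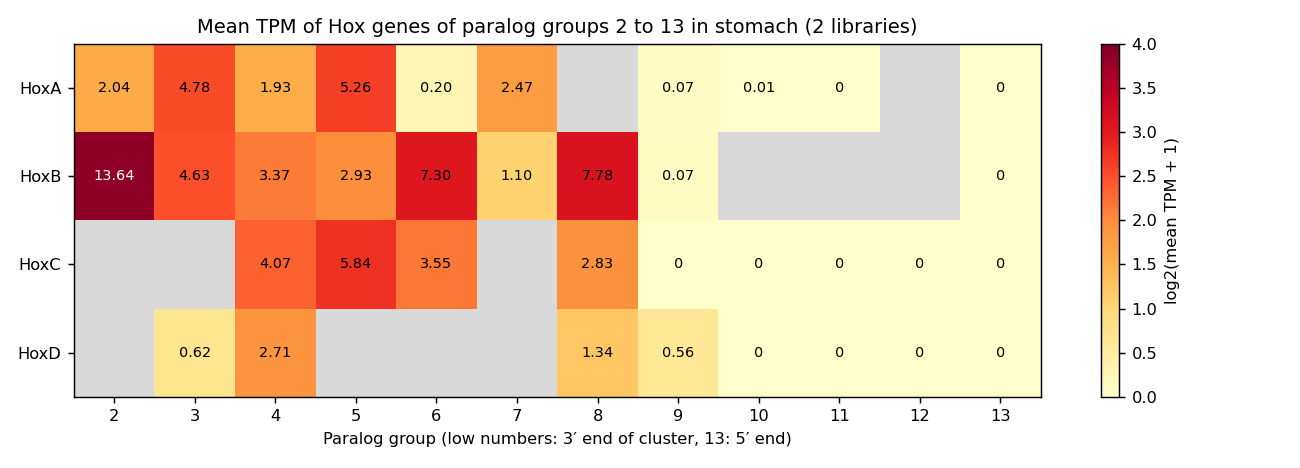
Mean TPM over both libraries for Hox genes of paralog groups 2 to 13, with clusters in rows and paralog groups in columns; grey cells are positions without a gene and colour is log2 of mean TPM plus 1. Values of at least 1 lie in columns 2 to 8, led by Hoxb2 at 13.64, and columns 10 to 13 are at 0 apart from Hoxa10 at 0.01.

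Hoxb2, which patterns the hindbrain in the embryo, had the highest level of the family in each library. It stood at 17.44 TPM in replicate 1 and 9.84 in replicate 2 (13.6 ± 5.37, SD, n = 2), higher than 80.8% of protein-coding genes by its mean. The median of all protein-coding genes was 1.15 TPM and that of the detected ones 8.945, so 16 of the 17 detected Hox genes lay between these levels by their mean, and their median was 3.55. Hoxb8 followed with 10.39 and 5.16 TPM (7.78 ± 3.70). Hoxb6 had 9.36 and 5.25 TPM (7.30 ± 2.91). The order below Hoxb2 was not fixed, since Hoxc5 ranked directly after it in replicate 2 but the fifth in replicate 1, and the libraries' values of Hoxb8, Hoxb6, Hoxc5 and Hoxa5 overlapped.

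In the HoxA cluster, Hoxa5 (chromosome 6, 52201754 to 52204587) had the highest mean, 5.26 ± 3.34 TPM, from 7.62 in replicate 1 and 2.90 in replicate 2. These values lay further apart than those of any other detected member of its cluster. Hoxa3, which is needed for the thymus and parathyroid, had 4.12 and 5.43 TPM. Hoxa2, a determinant of the branchial arches, had 2.17 and 1.90 TPM. Hoxa4 had 2.12 and 1.73 TPM and Hoxa7, which acts in the thoracic skeleton, 2.54 and 2.40. Hoxa6 was a gap in this row, at 0.18 and 0.23 TPM, although it lies between Hoxa5 and Hoxa7, its stop codon 3.784 kb from that of Hoxa5 and 10.76 kb from that of Hoxa7.

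HoxB was the most strongly expressed cluster. Its summed TPM was 50.87 in replicate 1 and 30.79 in replicate 2, or 56.0% and 45.6% of all Hox TPM, and 6 of its 10 members were detected. Besides Hoxb2, Hoxb6 and Hoxb8, these were Hoxb3 (5.37 and 3.90 TPM), Hoxb4 (3.51 and 3.22 TPM), a regulator of blood stem cells, and Hoxb5 (3.32 and 2.54 TPM), which acts in the enteric nervous system. Hoxb7 lay at the limit of detection used here, with 1.40 TPM in replicate 1 and 0.81 in replicate 2. On the other side of that limit stood Hoxd8, with 1.68 and 1.01 TPM.

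HoxC contributed 15.05 and 17.52 TPM, 16.6% and 26.0% of the Hox total, through 4 members. Hoxc5 had 5.56 and 6.12 TPM and Hoxc4 4.0 and 4.13. Hoxc6 had 2.84 and 4.26 TPM. Hoxc8, known for its part in motor neurons of the forelimb level, had 2.65 and 3.01 TPM. The cluster has no member of groups 1 to 3 or 7, so every HoxC gene of groups up to 8 was detected and none of the 5 with a higher number had a count. HoxD was the weakest cluster, at 6.17 and 4.31 TPM in sum, or 6.79% and 6.39%. In it only Hoxd4 (3.23 and 2.20 TPM) and Hoxd8 were detected, while Hoxd3 had 0.58 and 0.67 TPM and Hoxd9 0.68 and 0.43.

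**Figure D2:**
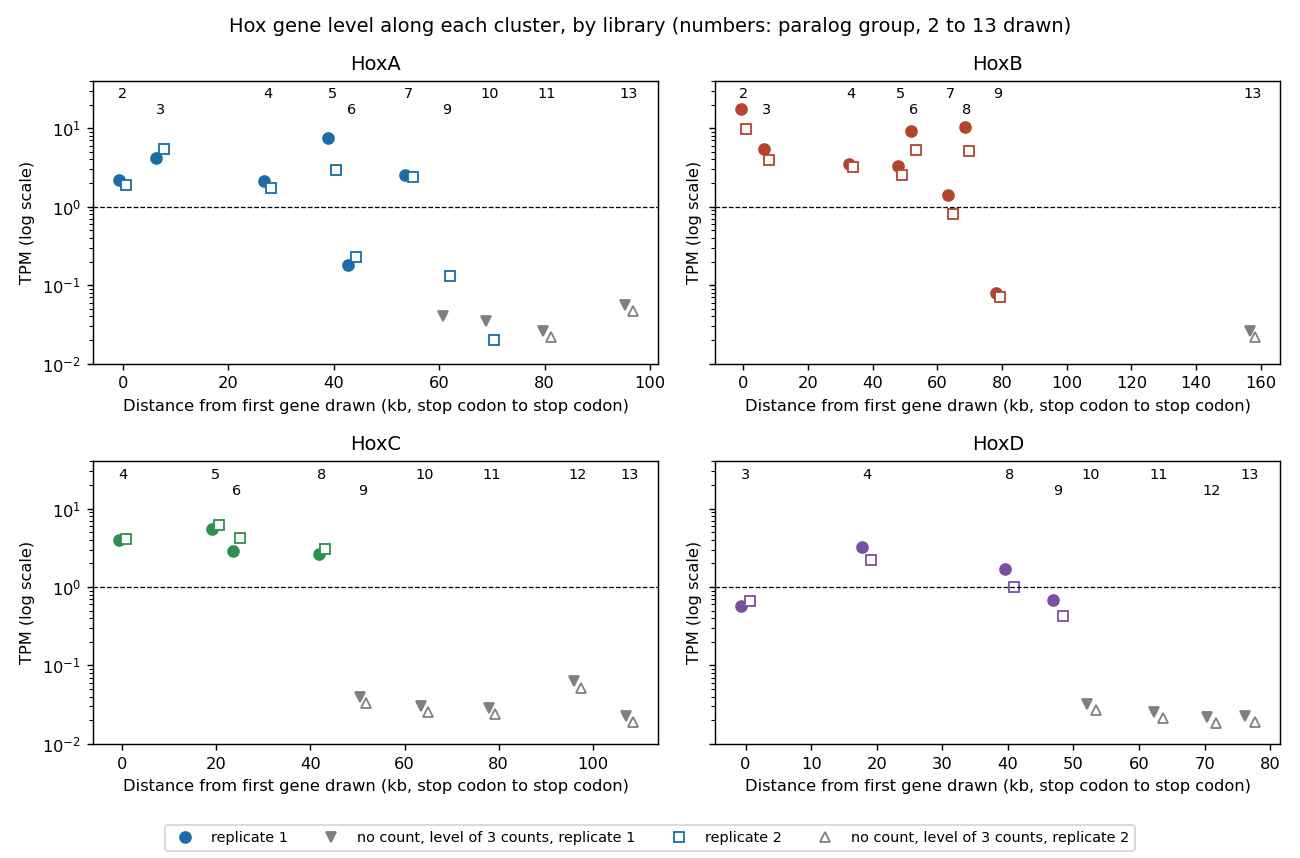
TPM on a log scale of each member against the distance of its stop codon from that of the lowest-numbered gene drawn in its cluster, in kb, for groups 2 to 13; filled circles are replicate 1, open squares replicate 2, and triangles mark the level of 3 counts for members with no count. In each cluster the points lie below the dashed line at TPM 1 from group 9 on, and the members from Hoxb13, Hoxc9 and Hoxd10 onward are triangles.

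In HoxA, HoxB and HoxC the levels dropped between the gene of group 9 and its lower-numbered neighbour, and in HoxD more gradually. In HoxC, Hoxc8 had 255 and 346 read pairs, and Hoxc9, whose stop codon lies 8.716 kb away, had none. In HoxB, Hoxb8 had 440 and 317 read pairs and Hoxb9, 9.611 kb away, had 9 and 11, a TPM of 0.08 and 0.07. HoxA has no gene of group 8, and there Hoxa7 had 164 and 123 read pairs while Hoxa9, 7.119 kb away, had 0 and 6. The drop was least steep in HoxD, where Hoxd9 (76 and 58 read pairs) lay between Hoxd8 (185 and 133) and Hoxd10, which had none and lies 5.053 kb beyond Hoxd9. Over all 12 genes of groups 10 to 13, replicate 1 had 0 read pairs and replicate 2 had 1, on Hoxa10.

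At the 3′ end of HoxB the levels also changed between neighbours. Hoxb1, which acts in the early hindbrain, had no read pair, and Hoxb2, 13.51 kb away, had 1438 and 995. At the 3′ end of HoxD, Hoxd1 had no read pair either.

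Promoter sequence was looked at because promoters rich in CG dinucleotides are a common target of Polycomb proteins, which keep Hox genes silent. RefSeq windows on GRCm38.p6, from 250 bases before to 50 after a start site, existed for 22 of the 39 members, with 24 windows. The 250 bases before the start site are shown for a detected and a silent or nearly silent member of HoxA and of HoxD, 5′ to 3′ on the gene's strand, with each CG in capitals. They were chosen as examples whose sequence overlaps no annotated UTR, which left out Hoxa7 and Hoxd9, and Hoxa5 is therefore not the neighbour of Hoxa9.
Hoxa5, chr6:52204588-52204837 (minus strand): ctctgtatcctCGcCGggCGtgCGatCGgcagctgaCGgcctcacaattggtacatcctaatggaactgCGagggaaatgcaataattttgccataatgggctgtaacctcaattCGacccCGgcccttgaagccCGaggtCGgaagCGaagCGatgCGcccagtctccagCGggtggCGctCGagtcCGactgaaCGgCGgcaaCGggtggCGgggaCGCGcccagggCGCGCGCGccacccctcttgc
Hoxa9, chr6:52227371-52227620 (minus strand): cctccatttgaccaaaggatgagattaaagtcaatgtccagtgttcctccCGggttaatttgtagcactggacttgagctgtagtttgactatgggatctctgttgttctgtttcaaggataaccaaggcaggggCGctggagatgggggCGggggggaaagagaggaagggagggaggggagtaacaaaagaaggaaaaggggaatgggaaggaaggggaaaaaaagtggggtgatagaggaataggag
Hoxd8, chr2:74704365-74704614 (plus strand): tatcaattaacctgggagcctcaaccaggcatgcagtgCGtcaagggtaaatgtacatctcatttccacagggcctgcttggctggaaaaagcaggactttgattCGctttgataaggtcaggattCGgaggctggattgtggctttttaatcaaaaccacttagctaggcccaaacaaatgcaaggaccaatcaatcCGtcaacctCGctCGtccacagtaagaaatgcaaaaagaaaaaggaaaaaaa
Hoxd10, chr2:74691641-74691890 (plus strand): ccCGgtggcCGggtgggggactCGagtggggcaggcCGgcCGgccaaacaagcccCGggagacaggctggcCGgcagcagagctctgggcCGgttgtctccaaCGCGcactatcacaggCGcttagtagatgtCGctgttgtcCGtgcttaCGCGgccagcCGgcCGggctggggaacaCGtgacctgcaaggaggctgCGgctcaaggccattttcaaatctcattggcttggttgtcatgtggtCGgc
These 250 bases held 28 CG dinucleotides for Hoxa5 and 3 for Hoxa9, and 6 for Hoxd8 and 20 for Hoxd10. The HoxA pair does not stand for its cluster, where whole windows held 9 to 29 CG in the detected members, with 9 in Hoxa7, and 4 to 45 in the others. In HoxD they held 4 and 6 in Hoxd4 and Hoxd8 and 4 to 37 in the members not detected, with 20 in Hoxd9. Over whole windows the median was 9 CG in the 9 windows of detected members, 20 in the 15 windows of members not detected, and 7 in all 32851 windows of the table. The ranges overlapped, from 4 to 29 in the former and from 4 to 45 in the latter.

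Motifs were counted on both strands of the same windows. The element AGGTCA, the core bound by nuclear receptors such as those for retinoic acid, occurred in 5 of 9 windows of detected members, in 2 of 15 windows of members not detected and in 16.3% of all windows. TATAAA, the TATA box, occurred in 2 of 9, 2 of 15 and 13.6%. The Hox and Pbx binding element TGATNNAT occurred in 2 of 9, 2 of 15 and 8.85%. The motifs shared bases with one another in 0 of the 24 windows. A match is only a match of letters, and promoters of the other 17 members were not analysed here.

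Differences between the replicates are given as log2 ratios of scaled counts, replicate 2 over replicate 1, with an interval at 95% that covers counting error only. Of the 17 detected members 12 were lower in replicate 2 and 5 higher, where 54.0% of all detected protein-coding genes were lower. The median ratio was -0.29, beside -0.04 over all detected protein-coding genes. The interval lay wholly below 0 for 9 members, against 43.4% of detected protein-coding genes, wholly above 0 for 2, against 33.5%, and spanned 0 for 6. Hoxa5 was the only member at least 2-fold lower, against 4.69% of detected protein-coding genes, and none was at least 2-fold higher, against 1.33%. With 737 and 336 read pairs, Hoxa5 had a ratio of -1.40 (-1.59 to -1.21), a scaled count 2.63-fold higher in replicate 1.

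The clusters did not move as one. All 6 detected HoxB members were lower in replicate 2, from Hoxb2 at -0.80 (-0.92 to -0.68) to Hoxb4 at -0.14 (-0.32 to 0.04), and the ratio of the cluster's summed counts was -0.56 (-0.63 to -0.50). The 4 detected HoxC members had ratios from 0.02 for Hoxc4 to 0.57 (0.33 to 0.81) for Hoxc6, with a summed ratio of 0.17 (0.08 to 0.26). Hoxc4 changed sign with the scaling, at -0.02 with DESeq2 size factors and below 0 with TMM on all genes, and of the HoxC members only Hoxc6 had an interval above 0. Both detected HoxD members were lower, Hoxd4 at -0.54 (-0.82 to -0.26) and Hoxd8 at -0.74 (-1.08 to -0.42). In HoxA, 4 of 5 were lower and Hoxa3 was higher, at 0.37 (0.22 to 0.52). The difference between clusters was not tested.

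**Figure D3:**
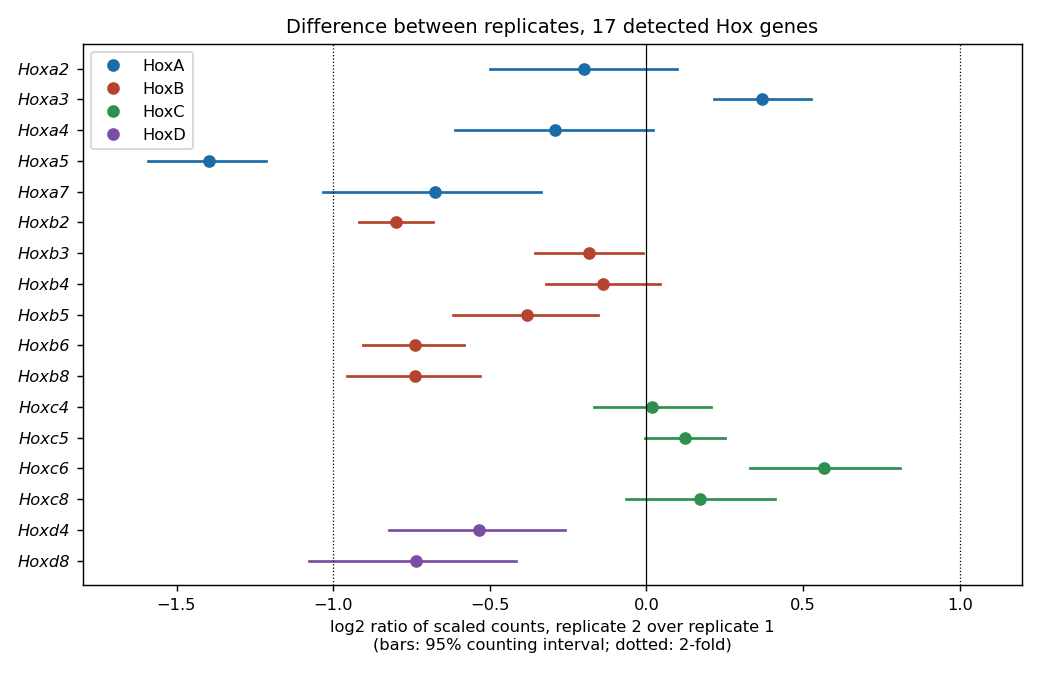
Log2 ratio of scaled counts, replicate 2 over replicate 1, for the 17 detected members in cluster order, with bars for the counting interval at 95% and dotted lines at 2-fold. The HoxB points lie left of 0, the HoxC points at or right of it, and Hoxa5 at -1.40 is the only point beyond a dotted line.

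Markers of the stomach's layers also differed between the libraries. Of 8 smooth muscle markers 7 were lower in replicate 2, where 54.0% of all detected protein-coding genes were lower. The other, Myh11, was higher, at 21.13 and 38.81 TPM (ratio 0.86, 0.82 to 0.90). The summed TPM of these 8 was 7043 in replicate 1 and 4382 in replicate 2. Of 7 fibroblast markers 6 were higher by scaled counts, and the 7 summed to 204.93 and 302.96 TPM. Most of that rise was Col1a2, at 46.97 and 110.49 TPM, whose scaled count had a ratio of 0.43 (0.40 to 0.47). The 5 endothelial markers summed to 178.19 and 195.49 TPM, and their ratios ran from 0.00 for Vwf and 0.03 for Egfl7, whose intervals spanned 0, to 0.64 for Pecam1. Both detected markers of interstitial (Cajal) cells, which pace gut contractions, were higher (25.41 and 32.70 TPM for the list of 3), and 2 of the 4 detected markers of enteric neurons and glia (29.39 and 25.39 TPM for the list of 9). Of the 8 gastric gland markers 4 were lower and 4 higher (155813 and 199727 TPM in sum). Of the 6 squamous markers 3 were lower and 3 higher (2468 and 1504 TPM in sum), with Lor at -1.92 (-1.94 to -1.90). The part of any of these cell types in the Hox ratios was not tested.

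Some markers of tissue outside the stomach were also detected, where the share for all protein-coding genes was 48.9%. They were 5 of 6 genes of striated muscle, which makes up the wall of the mouse oesophagus (846.6 and 837.21 TPM in sum), 4 of 5 of fat (74.52 and 148.08), 2 of 5 of blood (392.23 and 124.23), 2 of 5 of the small intestine (30.65 and 20.57), 2 of 5 of the pancreas (14.79 and 17.78) and 1 of 3 of liver (2.01 and 3.90). The blood sum came from the haemoglobin genes Hba-a1 and Hbb-bs, while the T cell gene Cd3e had 0.13 and 0.07 TPM, and the intestinal gene Sis had no count. Fat and muscle of the trunk can carry Hox transcripts of their own, and the part of such tissue in the Hox levels was not tested.

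Transcript models differ in length, so they bear on these levels. Of the 17 detected genes 6 had only 1 transcript above 0 TPM, and in 10 the leading transcript held over 90% of the gene's TPM in both libraries. The assignment of read pairs to these genes was nearly certain in the authors' model, which leaves aside counting error and the length used for TPM. The deposited posterior standard deviation of the count was 0 in both libraries for 15 of the 17, and 4.22% of the count for Hoxd4 and 0.387% for Hoxa3 in replicate 1. Hoxd3 had 17.7%, its models overlapping those of Hoxd4 and of the coding gene Gm28230 (106.54 and 47.01 read pairs).

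The other detected genes were divided between transcripts. For Hoxb3, the transcript of 1890 nucleotides held 96.64% of the gene's TPM in replicate 1 and 66.68% in replicate 2, and the one of 3190 nucleotides 3.36% and 33.32%. For Hoxa7, a transcript of 643 nucleotides held 45.45% and 75.31%, and one of 2031 nucleotides, annotated as a target of nonsense-mediated decay, most of the rest. Because TPM divides by length, the level of Hoxa7 was nearly equal in TPM while its scaled count had a ratio of -0.67 (-1.03 to -0.34), and on the log2(TPM + 0.1) scale the ratio was -0.08. For Hoxb3 the same scale gave -0.45 in place of -0.18 and for Hoxb8 -0.996 in place of -0.74.

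Hoxb6, Hoxc4 and Hoxd4 shifted less. The 1964-nucleotide transcript of Hoxb6 held 45.20% and 60.96%, the 2121-nucleotide one of Hoxc4 73.04% and 59.84%, and the 1494-nucleotide one of Hoxd4 71.92% and 82.58%. Hoxd8 was split alike in both libraries, with 59.41% and 59.64% in its 1758-nucleotide transcript. These shares rest on 287 to 1309 read pairs a gene over both libraries and were estimated by the authors' model. They have no replicate check beyond the pair of libraries. The split between a gene's transcripts was less certain than the gene's count. For the Hoxc4 transcript the deposited posterior standard deviation was 30.12 on a count of 324.01 in replicate 1 and 40.75 on 327.14 in replicate 2. For the 1890-nucleotide Hoxb3 transcript it was 12.05 on 505.83 and 22.65 on 302.85. Whether the shifts exceed this error was not tested.

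**Figure D4:**
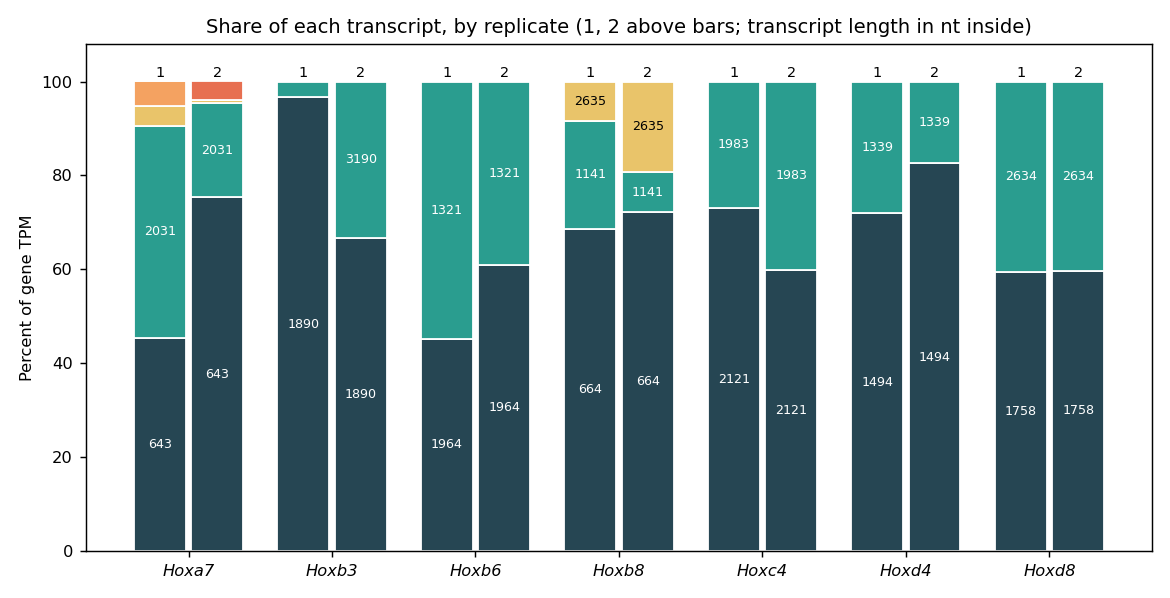
Percent of the gene's TPM held by each transcript in replicates 1 and 2 for the 7 detected genes without a transcript above 90% in both, with transcript lengths in nucleotides inside the bars. The boundary moves most in Hoxa7 (643-nucleotide transcript, 45.45% to 75.31%) and Hoxb3 (1890-nucleotide transcript, 96.64% to 66.68%) and hardly in Hoxd8.

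Reads across splice junctions were given for the whole series, and the sources used here do not tie them to either library. They come from the same series as the gene counts, so they are not an independent check of detection. All 17 detected members had reads on a junction of the length and spacing of an annotated intron, 995 in all. Of the 6 low members with more than 3 read pairs in both libraries, 3 had any, with 41 reads on Hoxa6 (5), Hoxb7 (26) and Hoxd9 (10). None of the remaining 16 members had a read on such a junction. Most junctions inside the clusters matched no annotated intron used here and were assigned to no gene. They were 58 of 66 junctions in HoxA (123 reads) and 54 of 67 in HoxB (118 reads). In HoxC they were 25 of 31 (48 reads) and in HoxD 49 of 58 (76 reads). Hoxb2 led with 173 reads on its intron, followed by Hoxb4 and Hoxc5 with 118 each, Hoxb8 with 100 on 2 introns and Hoxd4 with 97 on 4. Hoxd3 had 82.77 and 127.30 expected read pairs but no read on a junction of its own. For every 100 read pairs of the gene over both libraries there were 22.8 junction reads at Hoxd4 and 13.2 at Hoxb8, but 1.58 at Hoxa2, 1.45 at Hoxc4 and 1.89 at Hoxd8.

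The clusters also hold microRNA genes, which are known to act on Hox messages. Mir10a lies in HoxB and Mir10b in HoxD, both beside a gene of group 4, and the Mir196 genes lie in HoxA, HoxB and HoxC beside genes of groups 9 and 10, just beyond the drop in Hox levels. Their mature sequences from RefSeq are shown because their seeds, bases 2 to 8, in capitals, put them in a pair of families.
mmu-miR-10a-5p: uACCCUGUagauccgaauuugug
mmu-miR-10b-5p: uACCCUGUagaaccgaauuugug
mmu-miR-196a-5p: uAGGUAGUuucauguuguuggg
mmu-miR-196b-5p: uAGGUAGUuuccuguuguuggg
The hairpin genes Mir10a, Mir10b, Mir196a-1, Mir196a-2, Mir196b and Mir615 all had a count of 0, which says nothing of the mature forms, since RNA of up to 200 nucleotides was not sampled.

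The known target of miR-196a in Hoxb8 was looked for by sequence in 87 transcripts of the 39 genes, with up to 3 bases not paired. It was the only such site. It lies after the stop codon in the 2635-nucleotide transcript of Hoxb8, on the plus strand at chr11:96284888-96284909, and pairs 21 of 22 bases, the other being a G with a U. The capitals lie opposite the seed.
miR-196a site in Hoxb8: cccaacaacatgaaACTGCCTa
That transcript had 0.87 TPM in replicate 1 and 1.00 in replicate 2, or 8.34% and 19.35% of the gene. The shorter Hoxb8 transcripts of 664 nucleotides (68.63% and 72.16%) and 1141 nucleotides (23.03% and 8.49%) held the rest, and the site was not found in them.

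Of 43 noncoding genes in or beside the clusters 3 were detected and 34 had no count. Many of the 34 are microRNA hairpins or entries of the mixed class misc_RNA, and most of these are shorter than the RNA that was sampled. Their zeros therefore do not show that they were silent. No share over all noncoding genes was computed for comparison. Hotairm1, at the 3′ end of HoxA, had 5.18 and 4.98 TPM and 153 reads on its junction. Hoxaas2, between Hoxa2 and the 3′ end of Hoxa3 on the other strand, had 3.15 and 2.55 TPM. Hoxb3os, opposite Hoxb2 and Hoxb3, had 2.79 and 1.25 TPM, with a ratio of -1.15 (-1.44 to -0.89), lower in replicate 2 like both of its neighbours. The long noncoding RNAs of the 5′ ends, Hotair in HoxC and Hottip beside Hoxa13, had no count, nor did Hoxa11os or Haglr, which starts beside Hoxd1. The reads were strand-specific, but no source used here states whether the counting used strand, so values of genes that overlap on opposite strands are uncertain.

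Hox proteins bind DNA with TALE homeodomain partners, the Pbx, Meis and Pknox proteins. Against 48.9% of all protein-coding genes, all 9 of these genes were detected. Their median level was 9.245 TPM, beside 1.15 for all protein-coding genes. By scaled counts 4 were lower in replicate 2 and 5 higher, with a median ratio of 0.12, where 54.0% of all detected protein-coding genes were lower. Meis3 led with 28.01 and 20.23 TPM, then Pbx2 with 15.10 and 13.64, Meis2 with 12.53 and 15.06 and Meis1 with 9.59 and 9.98. The 9 genes summed to 87.21 and 81.87 TPM, beside 90.88 and 67.46 for the 39 Hox genes. Pbx4, at 4.69 and 2.16 TPM, was the member past 2-fold lower in replicate 2 (-1.54, -1.96 to -1.19), and Pknox2, at 2.07 and 2.91 TPM, the one past 2-fold higher by scaled counts (1.24, 0.94 to 1.57).

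The ParaHox and Evx genes are the closest relatives of the Hox genes. Of 8 only Pdx1, which marks the antrum and duodenum, was detected, at 2.72 and 2.79 TPM. Cdx2, which specifies intestine, had 0.25 and 0.35 TPM, and 5 had no count, among them Evx1 and Evx2 beyond the 5′ ends of HoxA and HoxD. Of all protein-coding genes 48.9% were detected and 22.5% had no count.

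Retinoic acid turns on 3′ Hox genes in the embryo. Of 16 genes of its pathway 11 were detected, against 48.9% of all protein-coding genes, with a median over the list of 5.96 TPM. Of the 11, 8 were lower in replicate 2 and 3 higher (median ratio -0.21), where 54.0% of all detected protein-coding genes were lower. The list was led by Dhrs3, which lowers retinaldehyde, at 77.68 and 58.94 TPM, and by the receptor genes Rxra (49.49 and 64.19 TPM), Rxrb (42.66 and 31.89), Rara (42.55 and 31.92) and Rarg (30.09 and 26.34). Rarb, a classic retinoic acid target, had 0.30 TPM in both libraries. Of the degrading enzymes Cyp26b1 had 2.32 and 1.11 TPM and was the only detected pathway member past 2-fold lower (-1.07, -1.27 to -0.88), and Cyp26a1 had 0.18 and 0.

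Chromatin regulators of the Polycomb and Trithorax groups keep Hox genes off or on. Of 21 such genes 14 were detected (median of the list 3.84 TPM), against 48.9% of all protein-coding genes. Of the 14, 4 were lower in replicate 2 and 10 higher (median ratio 0.07), where 54.0% of all detected protein-coding genes were lower. None of the 14 was past 2-fold in either direction. Pcgf2, a Polycomb subunit, had 57.18 and 54.71 TPM, Phc2 48.20 and 39.18, and Cbx7 12.59 and 22.22. On the activating side Men1 had 22.18 and 23.94 TPM and the methyltransferase gene Kmt2b 16.39 and 22.23. Suz12 (0.52 and 0.60 TPM) and Rnf2 (0.78 and 0.90) were below 1 in both libraries. Ezh2, chosen after its values were seen, had 0.46 and 1.34 TPM beside its paralog Ezh1 with 8.81 and 9.77.

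**Figure D5:**
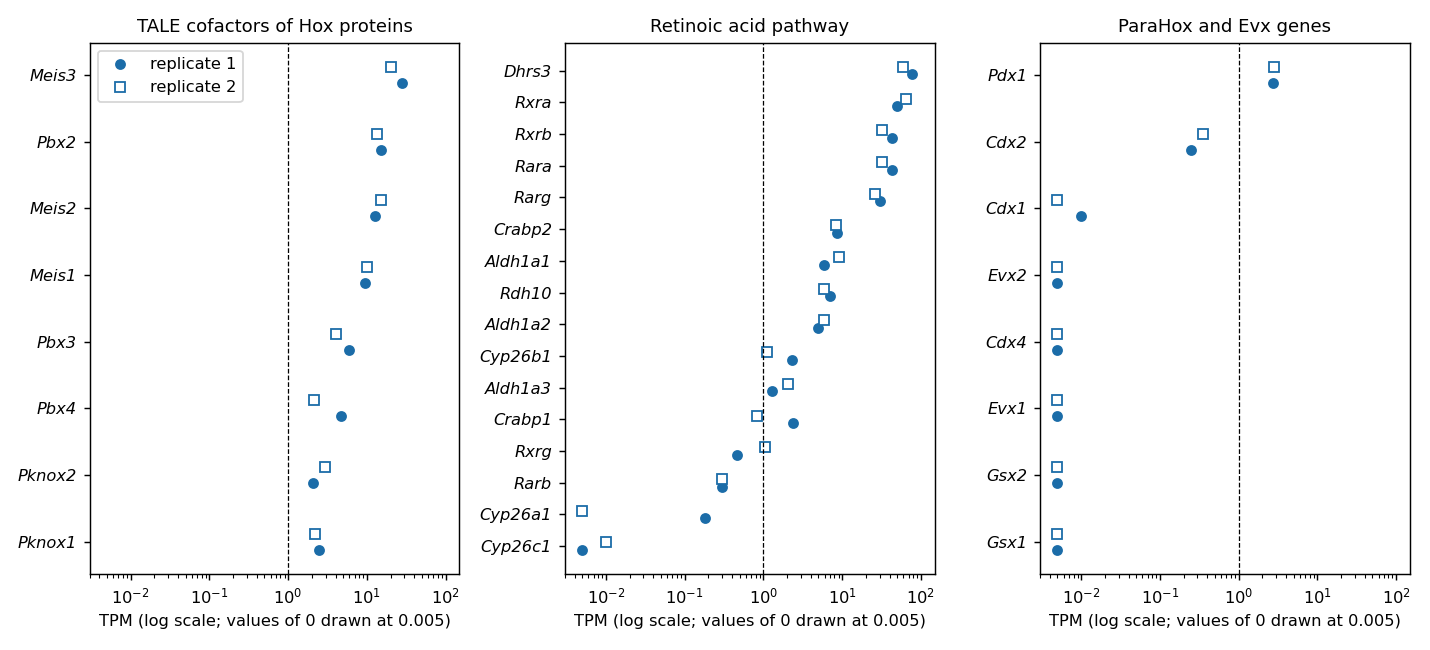
TPM on a log scale in replicate 1 (filled circles) and replicate 2 (open squares) for the TALE cofactors, the retinoic acid pathway and the ParaHox and Evx genes, with a dashed line at TPM 1 and values of 0 drawn at 0.005. The cofactors drawn lie right of the line, 11 of 16 pathway genes do so in both libraries, and Pdx1 alone of the ParaHox and Evx genes.

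Of the transcription factors of the stomach mesenchyme, 4 stood above every Hox gene in both libraries. Of 11 in the list 10 were detected, against 48.9% of all protein-coding genes. Of the 10, 9 were lower in replicate 2, against 54.0% of all detected protein-coding genes. The median ratio of the 10 was -0.62, beside -0.04 over all detected protein-coding genes. The list's median level was 9.635 TPM. Barx1, the stomach mesenchyme regulator that limits Wnt signals, had 182.97 and 108.33 TPM, Foxf1 45.12 and 29.43, Foxf2 32.90 and 25.69, and Hand2 31.16 and 17.39. Isl1 was higher in replicate 2, at 12.77 and 16.59 TPM. The low members, with Hand1 at 0 and 0.05 TPM, lay below the median of the detected Hox genes, as did 4 others with means from 1.315 to 1.84.

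Genes just outside the clusters followed no shared level. Of 10 measured 6 were detected, beside 48.9% of all protein-coding genes. In replicate 2, 3 of the 6 were lower, against 54.0% of all detected protein-coding genes, and 3 higher. The 6 detected genes had a median ratio of -0.07. They were Mtx2 beyond Hoxd1 at 70.93 and 24.60 TPM (ratio -1.48, -1.57 to -1.39), Hibadh beyond Evx1 at 21.79 and 17.39, Calcoco1 at 12.15 and 15.73 and Smug1 at 3.74 and 3.90 on the sides of HoxC, Lnpk beyond Evx2 at 1.10 and 2.52, and Skap2 beyond the 3′ end of HoxA at 1.21 and 1.07. The neighbours of HoxB, the strongest cluster, were low, with Skap1 at 0.59 and 0.19 TPM and Ttll6 at 0.08 and 0.04. Evx1 and Evx2 had no count, like the 5′ Hox genes beside them.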

How the data were processed

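Expected counts per gene and transcript were deposited by the authors, 1 table per library, from alignments on mm10 with GENCODE M4 models, per the README beside the tables. The authors deposited TPM and FPKM in the same tables, relative to all transcripts, and the percent of each transcript in its gene. The authors also deposited counts of reads per splice junction, on mm9. The quantifier and aligner: not given in the sources used here. Symbols and positions came from GENCODE M21 on mm10.

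Expected counts were rounded and mouse genes scaled by TMM in edgeR 4.0.16 (R 4.3.3), with 15234 genes kept for the factors. Ratios used a prior count of 2 and an exact conditional binomial interval at 95%. The calculation was checked on simulated counts with counting error only, which is the error the interval assumes. That check does not cover the spread between real libraries. DESeq2 1.42.0 size factors, library size, spike-in totals, other thresholds and prior counts were alternatives. With 1 library on each side no test was run. Spike-ins (1.14% and 1.12% of counts) and phiX174 (0.252% and 0.185%) stayed out of library sizes. Junctions were tied to introns by exact length at 1 shared spacing per cluster, with no conversion of coordinates, and 8, 13, 6 and 9 introns matched in HoxA to HoxD against 1 at the next best spacing. The deposited contig tables were not used.

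Any Hox gene could be named. Of each other list, up to 6 genes of highest TPM, up to 3 below 1 in both libraries and any past 2-fold were named, and a few genes are not reported here. The members and lists were chosen with earlier results of these data known.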

Additional observations from a re-analysis of the deposited data

How the results depend on the processing

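The count of 17 detected members was 17 with deposited FPKM or posterior mean TPM, 18 without spike-ins, Clps and Pgc in the total (Hoxb7 added), 19 at a TPM of 0.5, 20 at 10 counts and 21 at a TPM of 0.1. It was 17 without replicate 1 and 18 without replicate 2, and the HoxB share of Hox TPM was 45.6% to 56.0%, the HoxC share 16.6% to 26.0%, the HoxA share 20.7% to 22% and the HoxD share 6.39% to 6.79%. Without spike-ins, Clps and Pgc in the total, the mean TPM rose by more than the libraries' spread for most members, Hoxb2 to 21.4, by construction. The count of members lower in replicate 2 was 12 or 13, with Hoxa5 the only one past 2-fold, under all 8 other scalings. The deposited TPM of Hoxb8, 10.39 and 5.16, lay just past 2-fold. On the log2(TPM + 0.1) scale Hoxb8 fell just short of it, at -0.996, because of the added 0.1. Of the ParaHox and Evx genes 0 were lower in replicate 2, and 1 with DESeq2 size factors. Centring the ratios on the median of detected protein-coding genes, chosen after seeing the data, left 12 lower. Of the ratios of single members under other scalings 129 stayed inside the counting interval and 7 did not, all 7 on TPM scales. No paired analysis was possible because the series holds only 1 group. Depth limits the members with 1 to 20 read pairs, such as Hoxa6 and Hoxb9, whose counting intervals spanned 0.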
